A study of Mus musculus with 154 samples.

Results

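The 9 genes described here, Glul, Oat, Axin2, Lgr5, Slc1a2, Rhbg, Tbx3, Rnf43 and Znrf3, were taken by their symbols from a count table of 13289 genes, and all 9 were present. They were chosen as genes of the liver cells around the central vein that are known to depend on Wnt signaling. Total hepatic RNA was sequenced in 154 male mice from 24 strains. The control strain was C57BL/6J (B6, n = 20). A chromosome substitution strain (CSS) carries a chromosome of the strain A/J in place of the B6 copy, and all substituted chromosomes in these mice were heterozygous on a B6 background. The 8 single CSSs (63 mice in total, 8 per strain but 7 for (B6 x B6.A5)F1) carried A/J-derived chromosome 3, 6, 14 or 17 from the dam or 4, 5, 8 or 10 from the sire. The 15 double CSSs (71 mice in total, 3 to 6 per strain) carried one dam-derived and one sire-derived A/J chromosome. Strains are written with the dam first, A3 denotes the main effect of chromosome 3 relative to B6, and A14:A8 denotes the interaction in (B6.A14 x B6.A8)F1, which is the departure, in log2 units, of the double CSS from what its 2 main effects add up to. All mice were 5 weeks old and fasted overnight, the caudate lobe of the liver was used, and the offspring of each strain came from several breeding cages. No treatment other than the fast was given. A whole substituted chromosome differs from B6 at many loci, so no effect below is assigned to a locus. Every effect was measured against the same 20 B6 mice, so effects share these controls.

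In the liver lobule, endothelial cells of the central vein secrete Wnt ligands and R-spondins, and the surrounding hepatocytes respond through β-catenin and transcription factors of the TCF family. Without this signal, a destruction complex that contains Axin proteins degrades β-catenin. The pericentral hepatocytes capture the ammonia that escapes the periportal urea cycle and build it into glutamine. Among the 9 genes, Glul encodes glutamine synthetase, Oat encodes ornithine aminotransferase, which yields a precursor of glutamate, Slc1a2 encodes a glutamate transporter and Rhbg encodes an ammonium transporter. Axin2 encodes a feedback inhibitor in the destruction complex, and Tbx3 encodes a transcription factor induced by the pathway. Lgr5 encodes a receptor for R-spondins, and Rnf43 and Znrf3 encode ubiquitin ligases that remove Wnt receptors from the cell surface until R-spondins inactivate them. In RNA from whole tissue, fewer cells of a type and less RNA per cell cannot be told apart, and the position of a transcript in the lobule is not measured.

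The genes lie on 7 chromosomes of the build GRCm38. Glul spans chr1:153899944-153909723 on the plus strand, Slc1a2 spans chr2:102658659-102790784 on the plus strand and Rhbg spans chr3:88242874-88254709 on the minus strand. Tbx3 spans chr5:119670669-119684724 on the plus strand, Oat spans chr7:132557478-132576398 on the minus strand and Lgr5 spans chr10:115450311-115587780 on the minus strand. The other three lie on chromosome 11, with Znrf3 at chr11:5276324-5444847 on the minus strand, Rnf43 at chr11:87662722-87735539 on the plus strand and Axin2 at chr11:108920349-108950783 on the plus strand. Only Rhbg, Tbx3 and Lgr5 therefore lie on a substituted chromosome (3, 5 and 10, respectively), and none of their 3 main effects in cis passed the threshold used below.

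The 250 bases before the RefSeq start site (GRCm38.p6) are shown for Glul, Slc1a2 and Axin2, because they belong to the pairs that varied together most closely between mice (Tbx3, the partner of Axin2, had no entry). Capitals mark CTTTGA or its reverse complement TCAAAG, the core letters to which TCF proteins bind. The windows are chr1:153899679-153899928 for Glul, chr2:102706188-102706437 for Slc1a2 and chr11:108920099-108920348 for Axin2, each on the plus strand. The Slc1a2 window lies within the gene span given above.
Glul: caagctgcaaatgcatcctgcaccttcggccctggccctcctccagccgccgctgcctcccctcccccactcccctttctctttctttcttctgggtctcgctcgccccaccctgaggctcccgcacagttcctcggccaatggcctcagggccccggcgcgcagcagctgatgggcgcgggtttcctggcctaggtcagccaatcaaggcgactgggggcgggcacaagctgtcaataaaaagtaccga
Slc1a2: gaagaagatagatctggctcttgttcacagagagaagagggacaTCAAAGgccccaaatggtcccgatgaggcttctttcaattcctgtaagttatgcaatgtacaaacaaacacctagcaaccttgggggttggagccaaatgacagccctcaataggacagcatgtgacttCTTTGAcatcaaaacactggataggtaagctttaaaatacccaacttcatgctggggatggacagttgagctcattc
Axin2: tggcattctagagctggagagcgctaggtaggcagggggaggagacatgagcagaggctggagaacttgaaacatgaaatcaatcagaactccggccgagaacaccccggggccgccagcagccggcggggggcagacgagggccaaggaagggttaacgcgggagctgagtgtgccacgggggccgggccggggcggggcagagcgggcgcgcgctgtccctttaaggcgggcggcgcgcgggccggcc

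Windows from 250 bases before to 50 bases after the start were held for 5 of the genes, as 6 windows (Rnf43 had 2). Of these, 1 window, that of Slc1a2, held CTTTGA on either strand, with the leftmost bases at -206 and -77 relative to the start site. The same letters occurred in 16% of all 32851 windows of this length, and the longer form CTTTGAT occurred in 3.73%. Lgr5, Rhbg, Tbx3 and Znrf3 had no entry. A match is a description of the letters only.

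The total count per mouse lay between 4638701 and 30465477 (median, 16116424). In 1 mouse of (B6.A14 x B6.A4)F1, replicate 3, the summed level of 4 Y-linked genes was 2.94 CPM (counts scaled to a common library size), against 228 to 432 CPM in the other mice, although all mice were listed as male. Calls on the 9 genes that change without this mouse are given both ways. Counts for the other gene lists use all mice unless stated. Hepatocyte marker genes had a summed level of 56679 to 158741 CPM over all mice, and the summed endothelial markers lay at 288 to 436 CPM (medians of 358, 361.4 and 353 CPM in B6, single CSSs and double CSSs). Krt7, a bile duct marker, and Cd79a, a B cell marker, averaged below 1 CPM.

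Per kilobase of exon, Oat was the most abundant of the 9 transcripts, with 420.7 CPM per kb, followed by Glul with 171 CPM per kb and Slc1a2 with 13.5 CPM per kb. The other six lay between 0.438 CPM per kb for Lgr5 and 2.26 CPM per kb for Rnf43. Glul had 2270 to 21061 counts in a mouse. By contrast, Rhbg had 4 to 86 counts (median, 28), and 134 of 154 mice had at least 15, so values of Rhbg carry the most counting error.

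The 9 transcripts varied more between mice of the same strain than between strain means. On the log2 CPM scale, the SD within strains lay between 0.23 for Znrf3 and 0.45 for Tbx3, and the median over all genes was 0.23. The share of the variance that lay between strains, adjusted for the number of strains, was 2.37% for Tbx3, 6.51% for Slc1a2, 7.53% for Znrf3, 7.83% for Glul, 8.65% for Oat, 8.79% for Rnf43, 12.1% for Rhbg, 12.5% for Axin2 and 19.2% for Lgr5, and the median over all genes was 12.8%. When the 24 strain means of a gene were put in order, none of the 23 steps between neighbours exceeded the SD within strains in any of the 9 genes. Steps between neighbours among 24 ordered means are small even where strains differ, so these steps do not decide whether strains differ.

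The ends of the orders were shared between genes. (B6.A17 x B6.A4)F1 had the highest mean of all strains for Oat, Lgr5, Slc1a2, Rhbg and Tbx3. For Slc1a2, however, (B6.A14 x B6.A4)F1 took the highest place (7.74 log2 CPM, against 7.72) without the mouse that lacked Y-linked counts. (B6 x B6.A8)F1 had the lowest mean for Oat, Slc1a2 and Rhbg. The lowest means of Lgr5 (1.81 ± 0.35 log2 CPM, SD, n = 5) and Rnf43 (3.53 ± 0.34) were both found in (B6.A14 x B6.A4)F1, where they remained the lowest without the mouse that lacked Y-linked counts (1.78 and 3.57). Znrf3 was also lowest there (3.34 ± 0.33), but without this mouse its mean was 3.47 and ranked 3 from the low end. B6 itself ranked 2 from the low end for Glul and 19 for Znrf3.

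**Figure D1:**
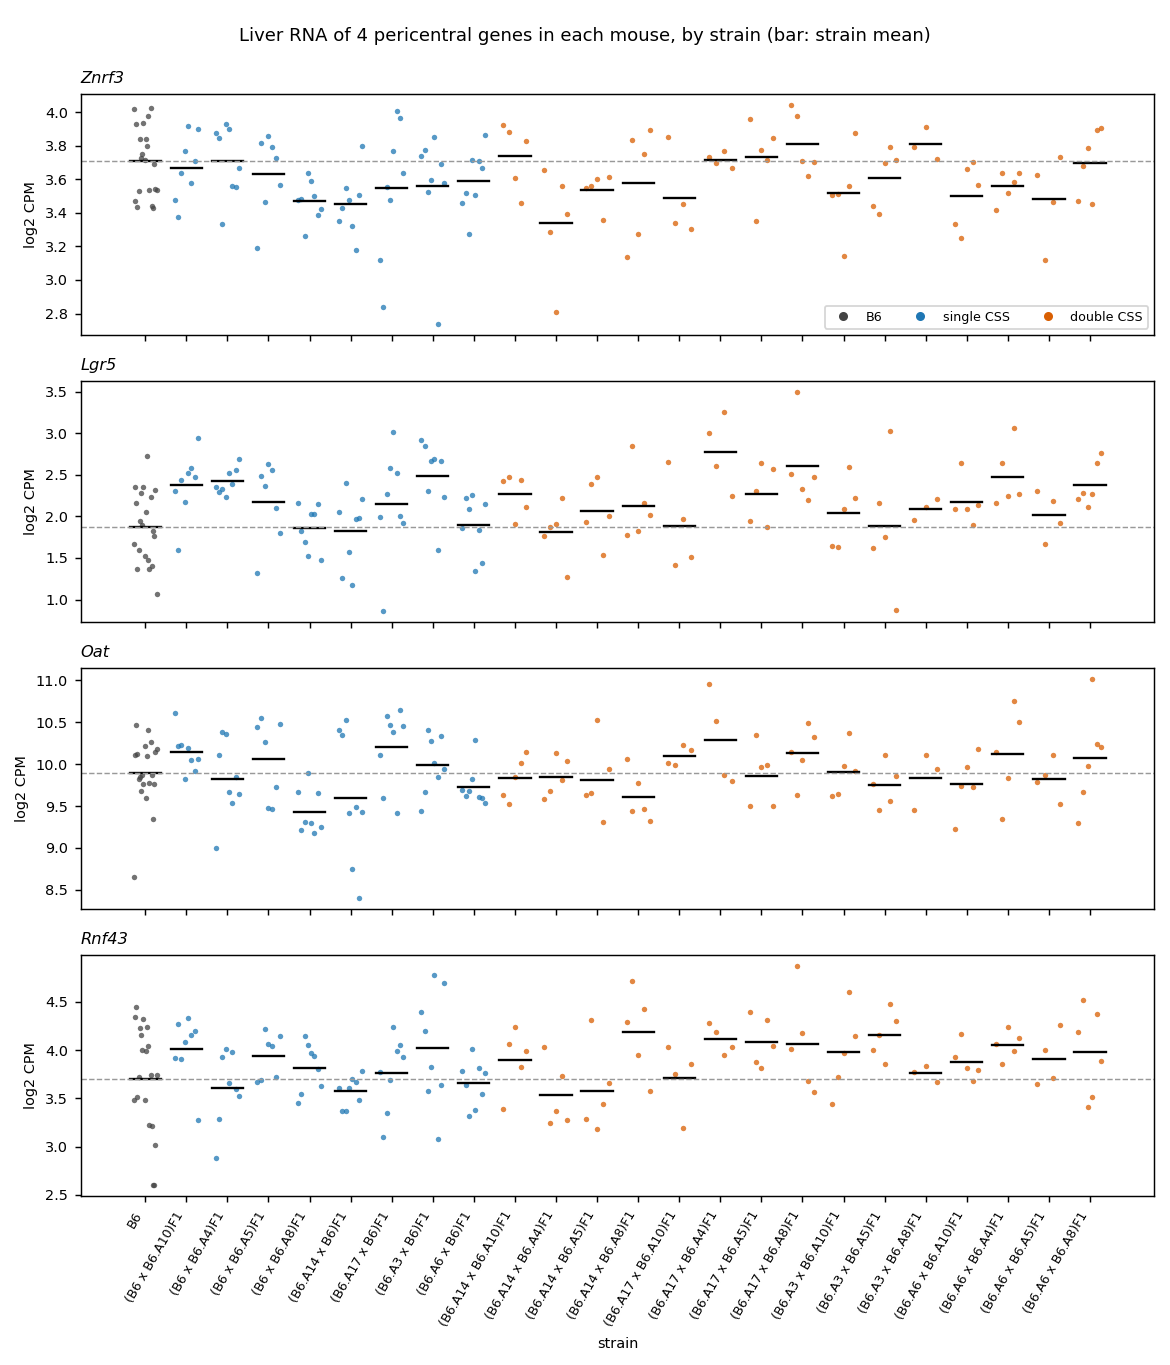
Levels of Znrf3, Lgr5, Oat and Rnf43 in log2 CPM (vertical axes) for each mouse (points) of the 24 strains (horizontal axis), with B6 in grey, single CSSs in blue and double CSSs in orange; bars are strain means and the dashed line is the B6 mean. The strains overlap widely, Znrf3 in (B6 x B6.A8)F1 lies at 3.26 to 3.64 below the B6 median of 3.72, and Lgr5 in (B6.A3 x B6)F1 has 7 of 8 mice above the B6 median.

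To ask which substituted chromosomes altered these genes, the 8 main effects and 15 interactions were estimated for every gene of the table with edgeR, and the FDR is the Benjamini-Hochberg adjusted p-value of its quasi-likelihood F-test with a threshold of 0.05. Of the 72 main effects on the 9 genes, 4 passed (5.56%), compared with 11.1% of the main effects on all genes. Another 13 had an unadjusted p-value under 0.05 without passing, so that 17 of 72 did so in all, against 24.6% for all genes. The interactions passed in 5 of 135 cases (3.70%), all of them positive, compared with 5.96% over all genes, and 21 had an unadjusted p-value under 0.05, against 18.2%. In the joint test of the 23 strain coefficients, 5 of the 9 genes differed among strains (Oat, Axin2, Lgr5, Rnf43 and Znrf3), which is close to the 51.4% of all genes. The joint test of the 15 interactions passed for Lgr5 and Znrf3, against 27.4% of all genes. Without the mouse that lacked Y-linked counts, Znrf3 did not pass it (FDR 0.119). By these counts, the 9 genes were not called more often than genes in general.

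**Figure D2:**
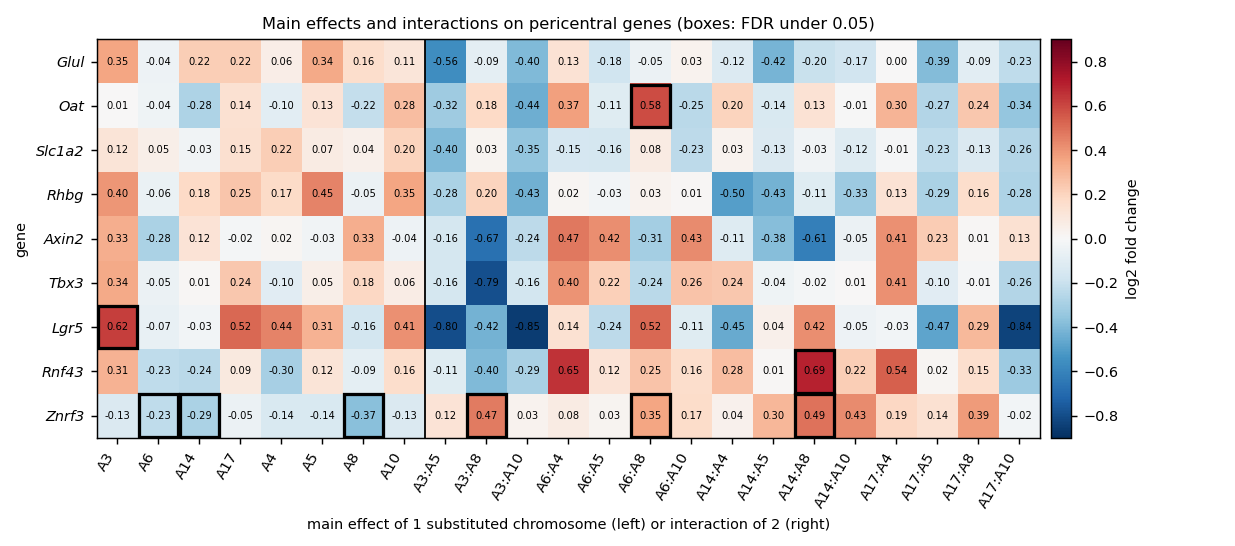
Fitted log2 fold changes (color and printed value) of the 9 genes (rows) for the 8 main effects, on the left, and the 15 interactions, on the right; boxes mark an FDR under 0.05. Znrf3 is negative in 8 of 8 main effects and positive in 14 of 15 interactions, and holds 6 of the 9 boxes. All effects share the B6 mice, so these signs are not independent.

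The genes of ammonia and glutamate handling had a single call. None of the 32 main effects on Glul, Oat, Slc1a2 and Rhbg passed, and 1 of their 60 interactions did, that of Oat in A6:A8. Glul lay at 8.07 to 9.61 log2 CPM in B6 (median, 9.17), at 8.19 to 9.56 in the single CSSs (median, 9.08) and at 8.51 to 9.73 in the double CSSs (median, 9.19). These 3 ranges overlapped nearly whole. In (B6.A3 x B6)F1, 7 of 8 mice lay above the B6 median of Glul and none above the highest B6 mouse, and the A3 effect of 0.35 (SE 0.11, FDR 0.0596) missed the threshold. For Slc1a2, the effect farthest from 0 among the main effects was A4, with 0.22 (FDR 0.125). For Rhbg, A3 is the effect in cis and had a value of 0.40 (FDR 0.1), while A5 had 0.45 (FDR 0.295).

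Other fits gave these genes calls that the model above did not. With 10 surrogate variables, Glul passed in A3 (0.39, FDR 0.0318) and A14 (0.41, FDR 0.0455), Oat passed in A10 (0.39, FDR 0.0423) and Slc1a2 passed in A14:A8 (-0.50, FDR 0.0395). With a filter of 15 counts in 75% of the mice, Glul passed in A3 (0.40, FDR 0.027), Slc1a2 in A4 (0.31, FDR 0.00728) and Rhbg in A3 (0.45, FDR 0.0497). Without surrogate variables, Oat passed in A8 (-0.49, FDR 0.0153). The absence of a main effect on these genes therefore depends on the fit.

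Oat reached 8.65, 9.87 and 10.46 log2 CPM in the lowest, median and highest B6 mouse. In (B6 x B6.A8)F1 the corresponding values were 9.18, 9.30 and 9.89, and in (B6.A6 x B6)F1 they were 9.54, 9.65 and 10.29. The 6 mice of (B6.A6 x B6.A8)F1 had values of 9.29, 9.67, 9.97, 11.02, 10.24 and 10.21. Both single CSSs thus tended to the low side of B6 without leaving its range, whereas all 6 double CSS mice lay above the 9.27 expected from the sum of the strain means (mean, 10.07). The fitted interaction was 0.58 (SE 0.23, FDR 0.0444), in an effect in which 13.4% of all genes passed as higher. It passed in 3 of 8 alternative fits (0.21 to 0.91, FDR 0.00609 to 0.719) and, without the mouse that lacked Y-linked counts, was 0.51 (FDR 0.0808). It also lost the call without each of 3 of the 6 double CSS mice (0.46, 0.56 and 0.56, FDR 0.137, 0.0709 and 0.0693).

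Axin2 and Tbx3, the inhibitor and the transcription factor that respond to the pathway, had no main effect and no interaction that passed. Axin2 ranged from 1.28 to 3.16 log2 CPM in B6 (median, 2.38), and all 8 mice of (B6.A3 x B6)F1 lay above this median, between 2.40 and the highest B6 mouse. The A3 effect was 0.33 for Axin2 (FDR 0.163) and 0.34 for Tbx3 (FDR 0.2). The interactions of A3:A8 were negative for both genes, with -0.67 for Axin2 (FDR 0.108) and -0.79 for Tbx3 (FDR 0.0936), and that of A14:A8 was -0.61 for Axin2 (FDR 0.0582). Axin2 passed the joint test of all strains (FDR 0.0347) although no single effect passed, and Tbx3 did not (FDR 0.252).

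Lgr5, the R-spondin receptor, rose in (B6.A3 x B6)F1. The lowest, median and highest B6 mouse had 1.07, 1.86 and 2.72 log2 CPM. The 8 mice with A/J-derived chromosome 3 had 2.91, 2.84, 2.30, 2.67, 2.69, 1.59, 2.66 and 2.23. Of these, 7 lay above the B6 median and 2 above the highest B6 mouse, while 1 lay below it. The fitted A3 effect was 0.62 (SE 0.15, FDR 0.0127), in an effect in which 1.94% of all genes passed as higher. It was called in 7 of the 8 alternatives, with values of 0.59 to 0.65, and missed the threshold without surrogate variables (FDR 0.0545 within a range of 0.00872 to 0.0545).

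Other main effects on Lgr5 did not pass, including positive values of 0.52 for A17 (FDR 0.0678), 0.44 for A4 (FDR 0.0591) and 0.41 for A10, which is in cis (FDR 0.0874). Without the mouse that lacked Y-linked counts, A4 passed (0.47, FDR 0.0481). The 4 mice of (B6.A17 x B6.A4)F1, which carry both of the former chromosomes, had 3.0, 2.60, 3.26 and 2.24 log2 CPM and 2 of them exceeded the highest B6 mouse. The fitted difference of this strain from B6 was 0.93 (SE 0.19, unadjusted p = 4.57e-06 from edgeR), and its mean of 2.78 was close to the sum expected from both single CSSs (2.70). In contrast, chromosome 3 together with chromosome 10 gave 1.65, 1.63, 2.09, 2.59 and 2.22, all below the expected 3.0. The corresponding interaction was -0.85 (FDR 0.0917), that of A17:A10 was -0.84 (FDR 0.211), and neither passed. Lgr5 was one of the genes with the joint interaction test passed (FDR 0.00719).

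Rnf43 and Znrf3 encode ubiquitin ligases that act on the same receptors, and both had a positive interaction of A14:A8. Rnf43 had values of 2.60, 3.74 and 4.45 log2 CPM in the lowest, median and highest B6 mouse, of 3.46 to 4.15 (median, 3.87) in (B6 x B6.A8)F1 and of 3.36 to 3.79 (median, 3.61) in (B6.A14 x B6)F1. The 5 mice of (B6.A14 x B6.A8)F1 had 4.29, 4.72, 3.95, 4.43 and 3.58. Of these, 4 lay above the additive expectation of 3.69, and 1 exceeded the highest B6 mouse. The interaction was 0.69 (SE 0.26, FDR 0.0321), and 18.1% of all genes passed as higher in A14:A8. It lost the call without either of 2 double CSS mice (0.49 and 0.67, FDR 0.172 and 0.056). It passed in 6 of the 8 alternatives (0.08 to 0.69, FDR 0.0318 to 0.911), the exceptions being those with 10 surrogate variables and with a stricter count filter. None of the 8 main effects on Rnf43 passed.

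Znrf3 accounted for 3 of the 4 main effects and 3 of the 5 interactions that passed. It was the least variable of the 9 genes, with 3.43, 3.72 and 4.03 log2 CPM in the lowest, median and highest B6 mouse. In (B6 x B6.A8)F1 the values were 3.26, 3.48 and 3.64, so that all 8 mice lay below the B6 median and 3 lay below the lowest B6 mouse. In (B6.A14 x B6)F1 they were 3.18, 3.45 and 3.80, with 7 of 8 below the B6 median and 4 below the lowest B6 mouse. In (B6.A6 x B6)F1 they were 3.28, 3.59 and 3.86, with 7 of 8 below the median and 1 below the lowest. The 3 groups still overlapped with B6 in part.

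The fitted main effects on Znrf3 were -0.37 for A8 (SE 0.09, FDR 0.00044), -0.29 for A14 (SE 0.08, FDR 0.00562) and -0.23 for A6 (SE 0.08, FDR 0.0498). The shares of all genes that passed as lower were 16.7% for A8, 12.6% for A14 and 3.79% for A6. The sign was negative for all 8 substituted chromosomes, but the other 5 did not pass. All 8 effects subtract the level of the same B6 mice, so these signs are not independent. For A4 (fitted value -0.14), the strain means were alike, with 3.71 in both (B6 x B6.A4)F1 and B6. Most mice of the double CSSs below lay above the sum of the decreases in their single CSSs. In (B6.A14 x B6.A8)F1 the mice had 3.14, 3.84, 3.27, 3.75 and 3.89, and 4 of 5 lay above the additive expectation of 3.21. In (B6.A3 x B6.A8)F1 they had 3.79, 3.91 and 3.72, all above the expected 3.32. In (B6.A6 x B6.A8)F1 they had 3.45 to 3.91 (median, 3.73), again all 6 above the expected 3.35.

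The interactions of Znrf3 were 0.49 for A14:A8 (SE 0.14, FDR 0.00343), 0.47 for A3:A8 (SE 0.15, FDR 0.0358) and 0.35 for A6:A8 (SE 0.13, FDR 0.0336). Among all genes, 18.1%, 4.91% and 13.4% passed as higher in these effects. The positive sign held for 14 of 15 interactions. Each interaction also contains the level of the same B6 mice, so these signs are independent neither of each other nor of the negative main effects. When the double CSSs were set against B6, the fitted difference of Znrf3 was -0.17 in (B6.A14 x B6.A8)F1 (unadjusted p = 0.074 from edgeR). It was -0.04 in (B6.A3 x B6.A8)F1 (unadjusted p = 0.742) and -0.25 in (B6.A6 x B6.A8)F1 (unadjusted p = 0.00698). The strain means, which are not adjusted for surrogate variables, were 3.58, 3.81 and 3.70 log2 CPM, against 3.71 in B6. The measured levels in (B6.A6 x B6.A8)F1 thus show no decrease like the fitted one, and 3 of its 6 mice lay above the B6 median.

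The calls on Znrf3 differed in how far they held. With 10 surrogate variables none of the 6 passed, and A8 was then -0.18 (FDR 0.217) and A14:A8 was 0.11 (FDR 0.722). These FDRs were the highest of a range from 0.000248 and from 0.00256 over the 8 alternatives. A filter that kept genes with 15 counts or more in 75% of the mice also ended all 6 calls, although Znrf3 passes it, and in that fit the surrogate variables were estimated again from fewer genes. A8, A14 and A14:A8 passed in the 6 other alternatives. A6 passed in 2 of 8, with DESeq2's Wald test (FDR 0.0394) and with the adjustment of the same fit over all genes (FDR 0.0485). Without the mouse that lacked Y-linked counts, A6 (-0.21, FDR 0.0801), A3:A8 (0.45, FDR 0.0552) and A6:A8 (0.33, FDR 0.0567) lost the call. With 1 mouse of the double CSS omitted at a time, A14:A8 kept the call in 5 of 5 cases, A6:A8 in 3 of 6 and A3:A8 in 0 of 3 (FDR 0.0651 to 0.141).

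In A3, the effects were positive for 8 of the 9 genes, with a median of 0.33 against 0.00 over all genes, and 6 of them (Glul, Axin2, Lgr5, Rhbg, Tbx3 and Rnf43) had an unadjusted p-value under 0.05, compared with 8.77% of all genes in that direction. Only that of Lgr5 passed the FDR threshold, and the exception in sign was Znrf3 (-0.13). Among 22 other pericentral enzymes and transporters, 6 rose in A3, against 1.94% of all genes, and none fell (median, 0.17). They included Slc13a3, a dicarboxylate transporter (0.65, FDR 0.00145), Cyp1a2, a cytochrome P450 (0.49, FDR 0.00483), and Lect2, a secreted protein known as a β-catenin target (0.48, FDR 0.00703). Of 22 periportal genes, 7 fell and none rose (median, -0.24). The share of all genes that passed as lower in A3 is not given here. Those that fell included Etnppl, which lies on chromosome 3 (-0.56, FDR 0.00218), the arginase gene Arg1 (-0.26, FDR 0.0141) and Cps1, the first enzyme of the urea cycle (-0.36, FDR 0.0148). No direction changed in 7 alternative fits, but without surrogate variables 1 pericentral and 1 periportal gene passed. Of the 9 endothelial markers none passed, and 1 of 8 hepatocyte markers did, Hnf4a (-0.29, FDR 0.0157).

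Calls were also counted among the other genes of the pathway. Of 61 listed genes (9 members not included), 47 were in the table, and 19 of these differed among strains in the joint test (51.4% of all genes did) and 7 in the joint test of interactions (27.4% of all genes). The corresponding counts were 21 and 10 of the 22 pericentral enzymes and 21 and 14 of the 22 periportal genes. In A3, none of the 8 ligands and secretion genes, 10 receptors, 13 genes of the destruction complex and its relay or 9 nuclear genes passed. Nkd1, a feedback inhibitor, rose (0.47, FDR 0.0211), as 1 of 4 inhibitors measured and, with Lect2, as 2 of 6 common targets measured.

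In A8 and A14, where Znrf3 fell, some of the ligand genes rose. The lowest, median and highest level of Rspo3, the R-spondin of the central vein, was 2.18, 2.60 and 2.97 log2 CPM in B6, 2.64, 2.93 and 3.06 in (B6 x B6.A8)F1 and 2.53, 2.87 and 3.05 in (B6.A14 x B6)F1. The 5 mice of (B6.A14 x B6.A8)F1 had 2.16, 2.49, 2.60, 2.49 and 2.66, of which 4 lay within the range of B6 and 1 just below it. The medians of both single CSSs thus lay above that of B6, and the median of the double CSS (2.49) lay below it.

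Rspo3 rose in A8 (0.33, SE 0.10, FDR 0.00541) and A14 (0.25, FDR 0.0394), with an interaction of -0.63 in A14:A8 (FDR 0.00106) and of -0.49 in A6:A8 (FDR 0.0107). Wnt2, a ligand of the same endothelium, rose in A8 (0.62, FDR 0.0119) and A14 (0.57, FDR 0.0157) and had an interaction of -1.08 in A14:A8 (FDR 0.00558). Wnt2 had the same calls in all 7 alternative fits, whereas Rspo3 kept that of A14:A8 and lost both main effects and A6:A8 with 10 surrogate variables (FDR 0.0981, 0.187 and 0.225) and with the stricter filter (FDR 0.0722, 0.231 and 0.0891), within ranges of 0.000701 to 0.0981 for A8, 0.0239 to 0.231 for A14 and 0.00246 to 0.225 for A6:A8. Together with Wnt5a (0.74 in A8, FDR 0.0242), 3 of 8 ligand and secretion genes rose in A8 and 3 in A14, where 12.9% and 9.98% of all genes rose. In A14:A8, 2 were lower and 1, Wnt5b, was higher (0.58, FDR 0.0476), where 18.1% of all genes passed as higher. The share that passed as lower is not given here. No ligand or secretion gene passed as higher there with 0 or 10 surrogate variables, DESeq2's size factors or the stricter filter. None did without the mouse that lacked Y-linked counts. The filter kept 5 of the 8 genes. In A14, 1 of these 5 rose with the filter, and 1 of 8 rose with 10 surrogate variables. The ligand gene Wnt9b did not pass in A8 (0.02, FDR 0.974), A14 (-0.36, FDR 0.319) or A14:A8 (0.40, FDR 0.506).

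Markers of several cell types moved in the same effects. Among all genes, 12.9% rose and 16.7% fell in A8, 9.98% rose and 12.6% fell in A14, and 18.1% passed as higher in A14:A8. In A8, 6 of 8 hepatocyte markers fell, 1 of 9 endothelial markers rose (Clec4g, which lies on chromosome 8, 0.54, FDR 3.88e-06) and 1 fell (Stab2, -0.14, FDR 0.0462). In A14, 5 of 8 hepatocyte markers fell, and 2 of 9 endothelial markers rose and 1 fell. In A14:A8, 5 of 8 hepatocyte markers had a positive interaction and 3 of 9 endothelial markers a negative one, with Clec4g at -1.24 (FDR 6.18e-10). The share of all genes that passed as lower in A14:A8 is not given here, so the 3 endothelial markers are not compared with it. The part of these markers in the values of Znrf3, Rnf43 and the ligands was not tested.

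Other components of the pathway also had calls. Among all genes, 12.9% passed as higher and 16.7% as lower in A8, and 18.1% passed as higher in A14:A8. Whether the counts below exceed these shares was not tested. The share of all genes that passed as lower in A14:A8 is not given here. In A8, 2 of 10 receptors rose, 1 of 13 destruction complex and relay genes rose and 3 fell, among them Tnks, which encodes tankyrase and lies on chromosome 8 (-0.38, FDR 4.56e-08), and 1 of 9 nuclear genes rose and 1 fell. In A14:A8, 3 of the 13 destruction complex and relay genes had positive interactions (Tnks, 0.40; Csnk1d, 0.35; Gsk3a, 0.29) and Amer1 had a negative one (-0.33). In the same effect, 3 nuclear genes had positive interactions, including Tcf7l2, the main hepatic TCF gene (0.74, FDR 1.64e-05), and Ctnnb1, which encodes β-catenin (0.34, FDR 8.81e-05). Of the inhibitors, Nkd1 rose in A14 (0.51, FDR 0.00362) and was lower than additive in A14:A8 (-0.69, FDR 0.0212).

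The pericentral enzymes did not move as a group in A8 (2 higher and 1 lower, median -0.02) or A14 (1 lower, median 0.05). The enzymes that passed in A8 were Rgn (0.58, FDR 0.000144), Lect2 (0.44, FDR 0.00516) and Gulo (-0.35, FDR 0.00146). By comparison, 18 of 22 periportal genes fell in A8 (median, -0.49) and 12 in A14 (median, -0.35), against 16.7% and 12.6% of all genes, and none rose. Cps1 fell by 0.82 on the log2 scale in A8 (FDR 2.78e-10) and the gluconeogenic gene Fbp1 fell by 0.49 (FDR 2.36e-08). In A14:A8, 14 periportal genes had a positive interaction and none a negative one (median, 0.61), with 1.33 for Cps1 (FDR 1.68e-11). Among all genes, 18.1% passed as higher in A14:A8 and 13.4% in A6:A8. In A6:A8, 13 were positive and none negative (median, 0.55), and 2 pericentral enzymes were positive and 6 negative (median, -0.20). The periportal directions held in 7 alternative fits, with 13 to 18 genes lower in A8 and 11 to 14 higher in A14:A8. The median of the pericentral enzymes in A8 lay between -0.20 without surrogate variables and 0.14 with 10, so its sign was not determined. In A6, 4 pericentral enzymes rose and 3 periportal genes fell, with Aldh1a1 (0.51, FDR 0.00819) and Cdh1 (-0.57, FDR 0.000928) at the lowest FDR. Of all genes, 3.79% fell in A6. The shares of all genes that rose in A6 and that passed as lower in A6:A8 are not given here. The 4 pericentral enzymes higher in A6 and the 6 negative in A6:A8 are therefore not compared with genes in general.

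Given the large spread between mice of one strain, the 9 genes were next compared within strains. Each value was expressed as the deviation of a mouse from the mean of its strain, and Pearson's r was computed over 154 mice for the 36 pairs, with 100000 two-sided permutations of mice within strains and Benjamini-Hochberg adjustment over the 36 pairs. Of the 36 pairs, 33 had a positive r and 22 passed, all of them positive, with r of at least 0.21. Among all pairs of genes in the table, 9.81% reached that r. An r of 0.3 or more was found for 17 of the 36, against 3.84% of all pairs. The median r was 0.25 for the 36 pairs and 0.00 for all pairs. By Spearman's rho, 21 passed.

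Counted by role, all 6 pairs among the ammonia and glutamate genes passed (r = 0.44 to 0.71; median, 0.46), as did 9 of 10 pairs among Axin2, Tbx3, Lgr5, Rnf43 and Znrf3 (r = 0.14 to 0.69; median, 0.33). Of the 20 pairs across these groups, 7 passed (r = -0.11 to 0.38; median, 0.17). Glul took part in 5 of the 7. The split by role was smaller on residuals of the model that included the surrogate variables, where 6 of 6, 6 of 10 and 12 of 20 pairs passed (medians, 0.52, 0.22 and 0.22). Axin2 and Lgr5 (r = 0.13, adjusted permutation p = 0.164), Tbx3 and Znrf3 (r = -0.02, adjusted permutation p = 0.792) and Rnf43 and Znrf3 (r = 0.05, adjusted permutation p = 0.571) then lost the call.

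**Figure D3:**
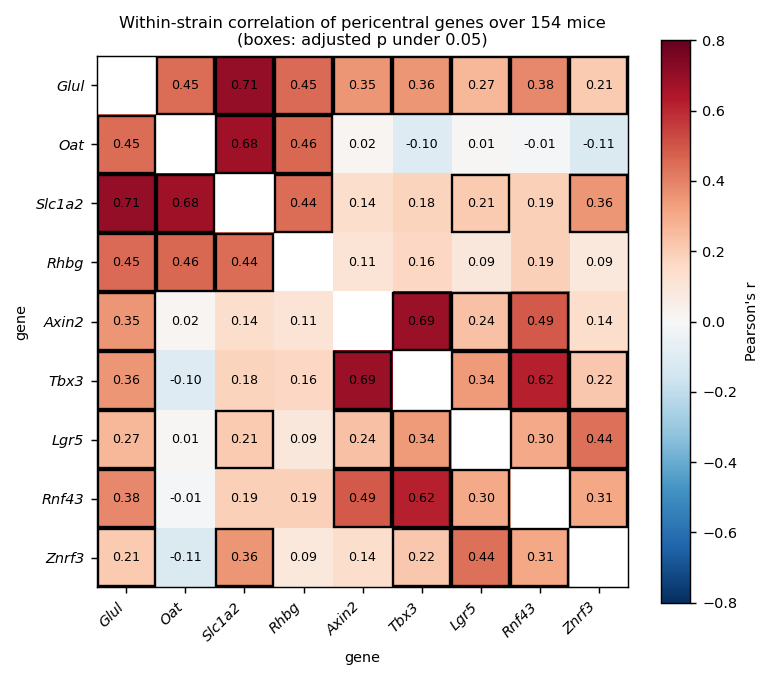
Pearson's r (color and printed value) between the within-strain deviations of each pair of the 9 genes (rows and columns) over 154 mice; boxes mark an adjusted permutation p under 0.05. The block of Glul, Oat, Slc1a2 and Rhbg at the upper left holds r of 0.44 to 0.71, and the row of Oat is near 0 for the genes of the other block.

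Glul and Slc1a2 had the highest correlation of the 36 pairs (r = 0.71, rho = 0.66, permutation p = 1e-05 and adjusted p = 3.6e-05 for both, the smallest that the permutations can give). It was 0.69 without the 2 mice farthest from the median of Glul, and 0.90 in B6, 0.65 in single and 0.59 in double CSSs. Slc1a2 ranked 2 of all genes for Glul, and Glul ranked 2 for Slc1a2. The first places were taken by Cyp2e1, a pericentral cytochrome P450 (r = 0.73), and Ubr3, a ubiquitin ligase gene (r = 0.72).

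Axin2 and Tbx3 were each the nearest gene to the other among all genes (r = 0.69, rho = 0.68, adjusted permutation p = 3.6e-05 for both), with 0.82 in B6, 0.59 in single and 0.70 in double CSSs. The value was 0.68 without the 2 mice farthest from the median. Rnf43 joined them, with r = 0.62 for Tbx3 and 0.49 for Axin2 (adjusted permutation p = 3.6e-05 for both), and Tbx3 was the nearest of all genes to Rnf43. Fzd7, a Wnt receptor gene, ranked next for both Axin2 (r = 0.61) and Tbx3 (r = 0.69). Lgr5 and Znrf3, whose products act on the same R-spondin signal, had r = 0.44 (adjusted permutation p = 3.6e-05).

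Oat varied with Slc1a2 (r = 0.68, rho = 0.63, adjusted permutation p = 3.6e-05 for both; 0.71, 0.71 and 0.64 in B6, single and double CSSs) and Rhbg (r = 0.46), whereas its r was 0.02 with Axin2, -0.10 with Tbx3 and -0.11 with Znrf3 (adjusted permutation p = 0.899, 0.323 and 0.218). On residuals of the model with surrogate variables, its r was 0.18 with Axin2, 0.07 with Tbx3, 0.12 with Rnf43 and 0.07 with Znrf3, none of which passed, and 0.27 with Lgr5, which did (adjusted permutation p = 0.00314). In B6 alone, r of Oat with Tbx3 was 0.43, against -0.21 in single and -0.22 in double CSSs.

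**Figure D4:**
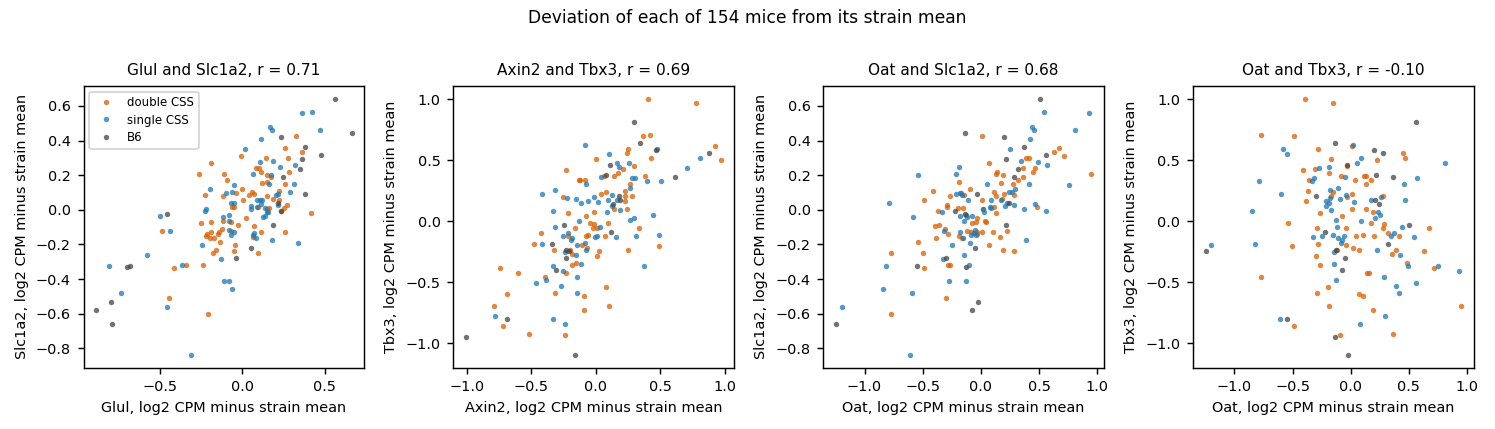
Deviation of each of 154 mice from its strain mean in log2 CPM, with one gene per axis, for Glul and Slc1a2, Axin2 and Tbx3, Oat and Slc1a2, and Oat and Tbx3; B6 mice are grey, single CSS mice blue and double CSS mice orange. The first 3 panels rise from lower left to upper right (r = 0.71, 0.69 and 0.68), and the last shows no slope (r = -0.10).

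The correlations were highest in B6. The value in the 20 B6 mice exceeded that in the single CSSs for 32 of 36 pairs and that in the double CSSs for all 36, although this difference was not tested and the pairs share mice and genes. For the pairs across both roles, the median r was 0.41 in B6, 0.11 in single CSSs and 0.02 in double CSSs. Glul and Tbx3, for example, had r = 0.77 in B6, 0.21 in single CSSs and 0.19 in double CSSs. Pairs that passed within each kind alone numbered 14 in B6, 14 in single CSSs and 8 in double CSSs.

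The nearest genes were also sought, with those below an average of 2 log2 CPM left out. Besides Slc1a2, Glul varied most closely with Cyp2e1 and Cyp1a2 (r = 0.73 and 0.70) and most inversely with Lyve1 (r = -0.62), a gene of the sinusoidal endothelium. The gene nearest to Oat was Lhpp (r = 0.90), which encodes a phosphatase and lies 34239 bases from Oat on the other strand of chromosome 7, at chr7:132610638-132706420. Hsd17b10 and Dmgdh, which encode mitochondrial dehydrogenases, followed (r = 0.76 and 0.73). Rhbg varied with Cyp2e1 and with Gulo (both r = 0.52). The genes most inverse to Slc1a2 were Rack1 (r = -0.65) and Rpl13a (r = -0.63), both of the ribosome. Those nearest to Lgr5 were Phldb2 (r = 0.55), Atxn7l1 (r = 0.51) and Daam1, a Wnt-linked formin gene (r = 0.48). Znrf3 varied with the transporter gene Abcc2 (r = 0.61) and inversely with Cox7c (r = -0.60), a subunit of cytochrome c oxidase. Rnf43 varied inversely with the insulin-responsive gene Igfbp1 (r = -0.62). These values describe likeness over 154 mice and were not tested.

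To check the label of the genes, each was set against the 22 pericentral enzymes and the 22 periportal genes. Glul reached r of at least 0.3 with 16 of the pericentral enzymes (median, 0.47), against 4.18% of all genes, and r of -0.3 or lower with 7 periportal genes, against 1.96% of all genes, including Gls2, which encodes the periportal glutaminase (r = -0.54). Slc1a2 and Rhbg reached 0.3 with 10 pericentral enzymes each, against 6.55% and 2.87% of all genes. Of the periportal genes, Slc1a2 reached it with 2 and had a positive r with 15 (median, 0.10). Rhbg reached it with 1 and had a positive r with 13 (median, 0.03). Axin2, Lgr5, Tbx3 and Rnf43 reached 0.3 with 1, 1, 2 and 4 pericentral enzymes, against 1.96%, 1.6%, 3.93% and 4.13% of all genes, and with no periportal gene. They had r of -0.3 or lower with 5, 5, 8 and 10 of the 22 periportal genes, against 1.15%, 1.73%, 3.69% and 2.41% of all genes. Oat had r of -0.3 or lower with 1 pericentral gene, Csad (r = -0.59), and with 2 periportal genes, against 5.68% of all genes. These 2 were Hsd17b6 (r = -0.46) and Ctsc (r = -0.31). Oat reached 0.3 with 7 pericentral and 8 periportal genes (medians, 0.23 and 0.25), against 10.2% of all genes. The 7 included Lhpp, the neighbour of Oat on chromosome 7 (r = 0.90). The 8 periportal genes included Asl (r = 0.63), Cps1 (r = 0.53), Ass1 (r = 0.51) and Arg1 (r = 0.50), all of the urea cycle. Znrf3 reached it with 2 pericentral genes and 1 periportal gene (medians, 0.06 and -0.10), against 7.21% of all genes, and thus was not placed by this measure. These genes of the lists, and the ligands that follow, were picked to be named after their values were seen. Of the 8 ligand and secretion genes, 4 had a positive r with Glul, and the median over all 8 was -0.03. Glul varied with Wnt2 (r = 0.60), Wnt9b (r = 0.31) and Rspo3 (r = 0.20), and inversely with the secretion gene Porcn (r = -0.33).

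**Figure D5:**
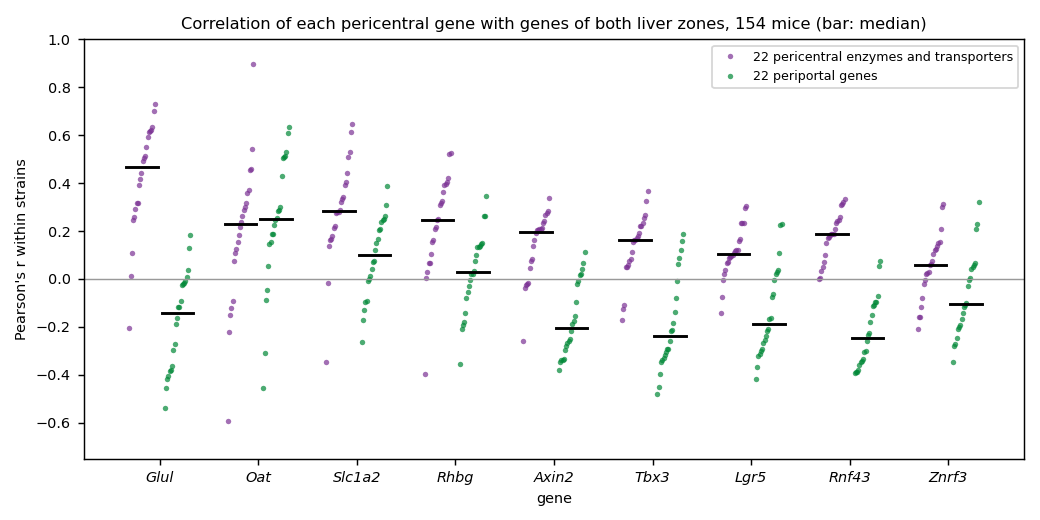
Pearson's r (vertical axis) within strains over 154 mice between each of the 9 genes (horizontal axis) and 22 pericentral enzymes and transporters (purple points) or 22 periportal genes (green points), with bars at the medians. The medians for Glul are 0.47 and -0.14, those for Oat 0.23 and 0.25, and those for Rnf43 0.19 and -0.25.

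Measures of the libraries moved with some of the genes. The deviation of Rhbg from the strain mean had r = 0.30 with log2 of the total count and -0.32 with the share of rRNA-like reads. That of Slc1a2 had r = -0.41 with the summed Kupffer cell markers and -0.43 with the summed stellate cell markers, and for the endothelial markers r lay between -0.15 for Oat and 0.26 for Axin2. The 5 surrogate variables held between 11.2% (Rhbg) and 41.4% (Oat) of the variance within strains, with 38.5% for Znrf3 and 35.7% for Slc1a2, compared with a median of 21.4% over all genes. When the pairs were computed from residuals of the model that included the surrogate variables, 24 of 36 passed. They also numbered 24 after log2 of the total count was removed.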

How the data were processed

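Per the labels and the study's methods, hepatic RNA was sequenced as stranded total RNA with single-end reads, and the authors used TopHat2 to align reads to mm10 and then, for those left over, to an A/J version of the genome. They deposited raw counts per gene from HTSeq-count, without normalization. Flow cells are not given in the sources used here. Mice were grouped by the strain label. Positions were taken from GENCODE vM21 for 13242 of 13289 genes and promoters from RefSeq.

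TMM scaling and tests used edgeR 4.0.16 in R 4.3.3, with 5 surrogate variables from svaseq (sva 3.50.0). A model of 8 main effects and 15 interactions was tested with the quasi-likelihood F-test (legacy=TRUE) over all genes, and the Benjamini-Hochberg adjustment was made per effect for genes on and off the substituted chromosomes. P-values measure the spread between mice. Log2 CPM was computed with a prior count of 2, and correlations used deviations from strain means. The scripts were tested on simulated data.

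The members and lists were chosen with earlier results of these data known. Named besides the members were the 3 genes with the highest and the 2 with the lowest r for each member (average log2 CPM of at least 2) and at most 3 genes per list with the smallest FDR in the main effect and the interaction with the most member calls. A3, A6, A14 and A8 were tied with 1 call each, and A6:A8 and A14:A8 with 2, so all were used. Alternatives were 0 or 10 surrogate variables, DESeq2's size factors and Wald test (version 1.42.0), a count filter, legacy=FALSE, other adjustment and thresholds, and the omission of mice.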

Additional observations from a re-analysis of the deposited data

Results flagged for a closer look

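Of 198 combinations of a member and a strain of 4 to 10 mice, 13 held a mouse far from the others by Dixon's criterion at the 95% level, and chance alone flags about 1 in 20 groups. On the log2 CPM scale, the lowest mouse stood apart for Glul in (B6 x B6.A5)F1 (8.641), (B6.A3 x B6)F1 (8.762) and (B6.A3 x B6.A5)F1 (8.831). The lowest mouse also stood apart for Axin2 in (B6.A14 x B6.A10)F1 (1.942), for Rhbg in (B6 x B6.A10)F1 (-0.1101) and (B6.A6 x B6.A5)F1 (0.3283), for Tbx3 in (B6.A17 x B6)F1 (2.732), for Rnf43 in (B6 x B6.A10)F1 (3.272) and for Znrf3 in (B6.A3 x B6)F1 (2.737) and (B6.A14 x B6.A5)F1 (3.354). The highest mouse stood apart for Oat in (B6.A6 x B6)F1 (10.29), Lgr5 in (B6.A17 x B6.A8)F1 (3.497) and Tbx3 in (B6.A6 x B6.A10)F1 (4.337).

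The effect of 1 substituted chromosome differed with the presence of another in the 5 interactions that passed edgeR's test. These were 0.5844 for Oat in A6:A8, 0.6897 for Rnf43 in A14:A8, and 0.4658, 0.3546 and 0.4891 for Znrf3 in A3:A8, A6:A8 and A14:A8.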

How the results depend on the processing

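As reported, 4 main effects, 5 interactions, 5 genes in the joint test of strains, 2 in that of interactions and 22 pairs passed. No called effect changed its sign, but the called pair of Tbx3 and Znrf3 did, from r = 0.22 to -0.02 (adjusted permutation p = 0.792) on residuals of the model with surrogate variables. Counts moved by over 1.5 times in the following cases, whose cause was not tested. Interactions passed in 1 case with 10 surrogate variables, in 0 with the filter of 15 counts in 75% of the mice, in 2 without the mouse that lacked Y-linked counts and in 1 at an FDR threshold of 0.01, where the main effects numbered 2. At an unadjusted p-value under 0.05 there were 21 interactions as reported. The joint test of interactions passed for 1 gene without surrogate variables, 0 with 10 of them, 1 with the filter and 1 without that mouse. The called main effects differed, since 1 of 4 called with 10 surrogate variables, 1 of 5 with the filter and 2 of 5 without surrogate variables were among those reported. With 10 surrogate variables the only interaction called was that of Slc1a2 in A14:A8 (-0.50, FDR 0.0395). Pairs passed in 14 cases in B6 alone, 14 in single CSSs and 8 in double CSSs, each with fewer mice, and in 21 to 28 cases in the other settings.

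Leaving out 1 double CSS mouse at a time gave 3 to 6 interactions, with 3 without replicate 5 or 6 of (B6.A6 x B6.A8)F1. The fitted values ranged from 0.46 to 0.65 for Oat in A6:A8, 0.49 to 0.87 for Rnf43 in A14:A8, and 0.37 to 0.55, 0.29 to 0.39 and 0.39 to 0.54 for Znrf3 in A3:A8, A6:A8 and A14:A8. Leaving out each mouse was not run for the main effects, and DESeq2's Wald test gave no joint test. No paired analysis was possible because the titles are mouse identifiers and the replicate numbers only follow their order. Depth limits Rhbg most.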
